A study of Mus musculus with 14 samples.

Results

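The comparison described here sets livers that received an adenovirus with a short hairpin RNA (shRNA) against Jnk1 beside livers that received an adenovirus with an shRNA against green fluorescent protein (GFP). Members were chosen by sample title alone: the 5 Jnk1 shRNA arrays and the 4 GFP shRNA arrays, 9 of the 14 arrays in the series. All 3 groups of the series were liver from C57BL/6J mice with diet-induced obesity. The remaining 5 arrays, from vehicle-treated mice, entered the normalization, the choice of probe sets to test and the shared estimate of spread. Their values are also set beside the comparison. Both groups compared carried adenovirus and a hairpin, so the comparison is between 2 hairpin viruses and not between virus and no virus. Any difference in virus preparation, dose or array handling between the groups cannot be told apart from that of the hairpin. GFP is absent from an ordinary mouse, so the GFP hairpin has no intended target. The labels give no age, virus dose or time after infection, name 1 hairpin per target, and do not say whether each array is a separate mouse; the p-values measure only the spread between these samples, which may be technical.

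Jnk1 is the kinase encoded by Mapk8. JNK kinases sit at the end of a relay in which MAP3K enzymes activate the MAP2Ks, MKK4 (Map2k4) and MKK7, which in turn activate JNK. Active JNK phosphorylates Jun and related proteins of the AP-1 family, which bind DNA as pairs. In liver the pathway is known for responses to stress, cytokines and dietary fat, for effects on insulin signalling, and for a role in the balance between cell death and regrowth.

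RNA had been hybridised to 1-colour Affymetrix mouse arrays with 22690 probe sets, and values are log2 intensities after quantile normalization. A difference of 1 on this scale is 2-fold, and intensities of different genes are not comparable with each other. Of 13576 probe sets kept, 4497 (33.1%) passed limma's test at a Benjamini-Hochberg adjusted p under 0.05, called here: 2350 were higher and 2147 lower with the Jnk1 virus. Counted as 1 probe set per gene, 2741 of 8027 genes (34.1%) were called, 1418 (17.7%) higher and 1323 (16.5%) lower, with a median difference of -0.02 over all genes. A change of at least 2-fold was called in 395 genes (4.92%), and the arrays of both groups did not overlap in 2323 (28.9%). The called share rose with level, from 14.7% in the dimmest of 4 equal classes of genes to 53.6% in the brightest, so lists of abundant liver genes start from a higher background. Scaling every array to the same median in place of quantile normalization gave a median of 0.09 over all kept probe sets. The split moved from 2350 higher and 2147 lower to 2986 and 1144. Values as deposited moved it the other way, to 2218 and 2539 (median -0.07). Scaling to the same 75th percentile gave 2203 and 2472 (median -0.06). The counts of each list are also given with median scaling, in the same order, which shows only 1 side of this dependence. Each list count is to be read beside the shares over all genes, 17.7% higher and 16.5% lower.

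Array quality moved with the comparison. The 18 bacterial spike-in probe sets, whose RNA is added at the bench, had a mean of 8.82, 8.84, 8.91 and 8.98 on the GFP arrays and 7.92, 8.79, 8.33, 8.38 and 8.52 on the Jnk1 arrays (exact two-sided permutation test, p = 0.0159, adjusted over 8 measures p = 0.0254). The largest intensity on an array lay between 6528 and 8293 with GFP and between 4332 and 5522 with Jnk1 (exact two-sided permutation p = 0.00794, adjusted p = 0.0212; no smaller p is possible with 5 arrays against 4). Adding the spike-in mean to the fit as a covariate left 2349 calls, 1216 higher and 1133 lower, and taking the Jnk1 array of highest spike-in mean alone, array 2, left 1342. GFP array 2 stood apart in its median intensity, 58.3 against 45.8 to 47.8 on the other 3. Its omission left 4203 calls. The array median (adjusted p = 0.0212) and the Gapdh 3′ minus 5′ difference, a sign of RNA quality (-0.445 with Jnk1 and -0.544 with GFP, adjusted p = 0.0254), also differed by exact permutation tests. The same difference for the actin control, 0.137 with Jnk1 and 0.118 with GFP, did not pass that test (adjusted p = 0.5635). The mean correlation with the own group (0.978 and 0.959) gave an adjusted p of 0.0212 by that test. It was computed from the group labels, so its p is not reliable. Counting it, 5 of 8 measures passed, and the trimmed mean, also among the 8, was fixed near 150 by the scaling. The 18S ribosomal RNA control read 52, 1976, 195, 702 and 390 on the Jnk1 arrays and 1052 to 1567 on the GFP arrays. The exact permutation test of its means gave an adjusted p of 0.212, but does not measure this spread. The 233 called genes named below were picked mainly by p or size in the same fit. Of them, 32 lost their call with the spike-in covariate and 19 with median scaling. Where it is not said beside the gene, these were Dusp16, Map3k7, Maff, Map2k3, Olig1, Dntt, F10, Proc, Hfe, Nolc1, Hspa5, Hspa9, Actn4, Plagl1, Plk3, Sesn2, Mcl1, Bok, Fadd, Prkra, Dicer1, U2af1 and Tra2b with the covariate, and Map3k12, Map3k7, Dusp16, Map2k1, Map2k3, Fabp2, Rps3a1, Derl2, Plk3, Mcl1, Hnrnpa2b1 and U2af1 with median scaling. The part of these measures in the results below was not tested.

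**Figure D1:**
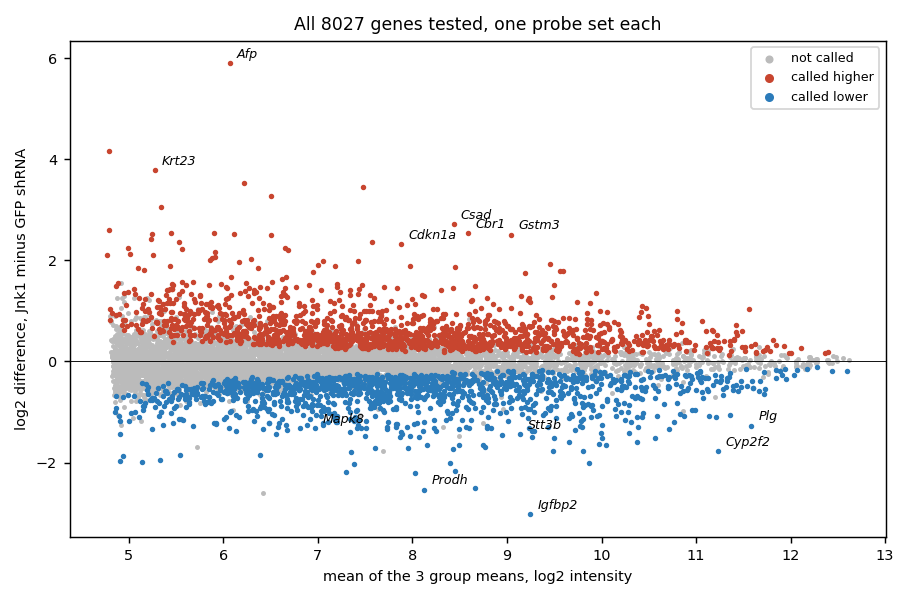
Each point is 1 gene: the horizontal axis is the mean of its 3 group means of log2 intensity and the vertical axis the difference of mean log2 intensity, Jnk1 shRNA minus GFP shRNA. Red and blue points are the 1418 genes called higher and the 1323 called lower, grey points were not called, and 12 genes described in the text are named.

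Mapk8 itself was lower on every Jnk1 array. Its brightest probe set gave 7.34, 7.37, 7.51 and 7.31 on the GFP arrays and 6.03, 5.88, 6.36, 6.09 and 5.98 on the Jnk1 arrays, and the groups did not overlap. The difference was -1.31 (SE 0.11, adjusted p = 3.5e-07), which leaves 40.2% of the intensity of the GFP group, and the exact two-sided permutation p was 0.00794, the smallest possible with 5 arrays against 4. A second probe set fell by 1.12 (adjusted p = 0.00082), while the remaining one gave -0.12 (adjusted p = 0.561). Mapk9, the gene of the close relative JNK2, gave 0.08 (SE 0.15), with 8.07, 7.82, 8.07 and 8.0 on the GFP arrays and 7.68, 8.53, 7.87, 8.34 and 7.91 on the Jnk1 arrays. Those values overlap, and without Jnk1 array 2 the Mapk9 difference was -0.04.

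Of 17 genes on the array from the list of JNK kinases, their activators and their partners, 14 were tested, 7 fell and 0 rose; the median difference was -0.36. With median scaling 4 fell (median -0.19), and with the spike-in covariate 3 fell (median -0.16). Apart from Mapk8 the largest drop was in Itch, a ubiquitin ligase that JNK activates: 7.69, 7.42, 7.86 and 7.59 on the GFP arrays against 6.38, 6.7, 6.34, 6.39 and 6.71 on the Jnk1 arrays, a difference of -1.14 (SE 0.13, adjusted p = 1.02e-05). All 5 Jnk1 arrays lay below all 4 GFP arrays for Itch. Map3k5, the stress-activated kinase ASK1, read 6.19, 6.92, 6.57 and 6.61 against 5.96, 6.22, 5.96, 5.88 and 5.79 and fell by 0.61 (adjusted p = 0.00393); its highest Jnk1 array lay above its lowest GFP array, so the groups overlap, and with the spike-in covariate the difference was -0.47 (adjusted p = 0.154). Map3k12, another MAP3K, fell by 0.74 (adjusted p = 0.0192), but its Jnk1 arrays spread from 6.81 to 8.27, and with the spike-in covariate the difference was -0.07 (adjusted p = 0.898).

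The remaining 3 calls in the list were marginal. The phosphatases Dusp10 and Dusp16, which remove phosphate from JNK and p38, differed by -0.77 (adjusted p = 0.0409) and -0.4 (adjusted p = 0.0259). Map3k7, the kinase TAK1, differed by -0.32 (adjusted p = 0.0385), with its other 3 probe sets at 0.20, -0.36 and -0.59, the last of them called. Each of these 3 calls was lost when single arrays were left out, with adjusted p up to 0.134, 0.0864 and 0.127. Map2k4, the direct activator of JNK, gave -0.16 (adjusted p = 0.358) and 0.01 with median scaling.

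The next list held genes of AP-1 and other stress-responsive transcription factors, measured here as RNA and not as JNK activity. Of 19 on the array 17 were tested, 4 fell and 0 rose, with a median of -0.26; 3 fell with median scaling and 1 with the spike-in covariate. Klf6, a zinc-finger factor induced by injury, read 7.31, 7.79, 7.51 and 7.51 with GFP and 6.45, 6.51, 6.32, 6.87 and 6.55 with Jnk1, which left no overlap and a difference of -0.99 (SE 0.23, adjusted p = 0.00394); with the spike-in covariate it was -0.84 (adjusted p = 0.124). Myc, the growth-promoting factor, fell by 1.15 (SE 0.33, adjusted p = 0.0124), and the difference was -0.82 (adjusted p = 0.284) with the covariate. Atf4, the effector of the integrated stress response, fell by 0.58 (SE 0.15, adjusted p = 0.00724), and by 0.37 with median scaling (adjusted p = 0.0756).

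Maff, a small Maf protein, differed by -0.95 (adjusted p = 0.025), a call lost without GFP array 3 or Jnk1 array 3, 4 or 5. Jun itself read 7.77, 7.26, 7.62 and 6.9 against 8.61, 7.53, 7.2, 7.56 and 7.1. These values overlap widely: the difference was 0.21 (SE 0.31), -0.04 without Jnk1 array 1 and -0.59 with the spike-in covariate, so no direction can be given. Atf2, a JNK substrate, gave -0.12 (0.11 with median scaling), and Atf3 gave -0.43 (SE 0.40).

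The other MAP kinase branches were also lower with quantile normalization: of 9 tested, 5 fell and 0 rose, but with median scaling 0 of them passed. Mapk14, the p38-alpha kinase, read 8.9, 8.39, 8.9 and 8.71 on the GFP arrays and 8.28, 8.09, 8.08, 7.95 and 8.03 on the Jnk1 arrays, a difference of -0.64 (SE 0.11, adjusted p = 0.000246), and -0.42 with median scaling (adjusted p = 0.0578). Map2k3, which activates p38, and Map2k1, which activates ERK, differed by -0.7 (adjusted p = 0.0105) and -0.31 (adjusted p = 0.0101).

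**Figure D2:**
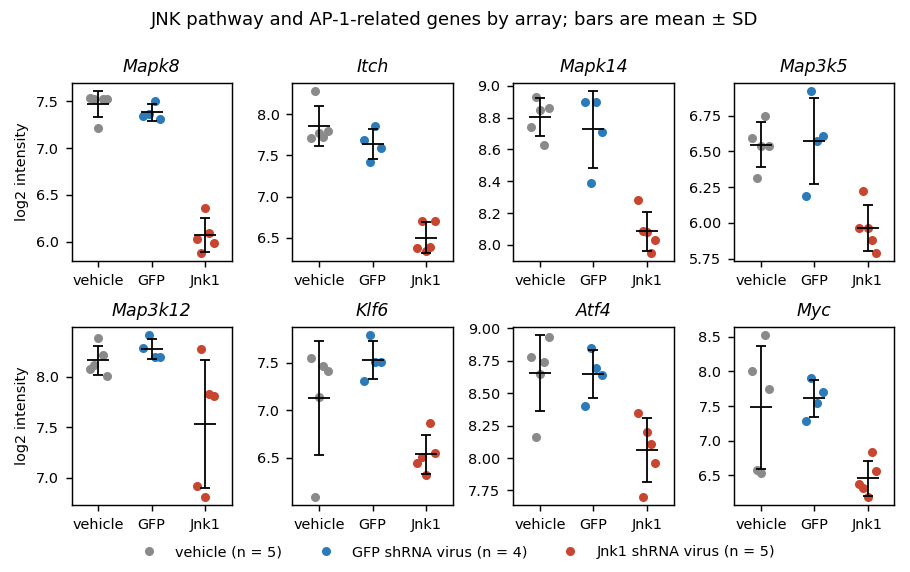
Log2 intensity (vertical axis) of 8 kinase and transcription factor genes, with 1 point per array for vehicle (grey, n = 5), GFP shRNA virus (blue, n = 4) and Jnk1 shRNA virus (red, n = 5), and bars for mean ± SD. The Jnk1 points of Mapk8 lie between 5.88 and 6.36 and the GFP points between 7.31 and 7.51, while single arrays of both groups overlap for Map3k5 and Map3k12.

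Promoters were read for the AP-1 letters TGAGTCA, the cyclic-AMP element TGACGTCA, the E-box CACGTG and, chosen after values were seen, the antioxidant response core TGACNNNGC, each on both strands. The windows were 300 bases, 250 before and 50 after each RefSeq start of assembly GRCm38.p6, and 6566 tested genes had at least 1. TGAGTCA was in a window of 5.15% of genes called higher, 6.62% of genes called lower, 4.85% of genes not called and 5.95% of all 27025 genes of the promoter table. TGACGTCA was in 2.96%, 3.08% and 3.74% of those 3 groups and 2.03% of the table, and CACGTG in 11.74%, 12.95% and 12.04% and in 8.09% of the table. TGACNNNGC, which can share bases with TGAGTCA, was in 17.31%, 16.68%, 16.89% and 13.99%. The shares of called genes lay within 2 percentage points of those of genes not called for each of the 4 motifs, a wide margin for the rarer motifs. The widest gap was that of TGAGTCA in genes called lower, 6.62% against 4.85%, and it was not tested. A match is only a description of the letters.

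The 250 bases before the start are printed 5′ to 3′ on the gene's own strand for 6 genes, with matches to the 4 motifs in capitals. Afp (alpha-fetoprotein, the main serum protein of fetal liver, chr5:90490464-90490713, plus strand) is shown because its 5 Jnk1 arrays read 9.62, 10.48, 10.65, 10.05 and 10.35 against 4.47, 4.03, 4.34 and 4.49 on the GFP arrays. The GFP values lie under the filter (4.83 on the log2 scale), so the size of this difference is uncertain. Igfbp2 (an insulin-like growth factor binding protein, chr1:72825137-72825386, plus strand) fell most, -3.02. Nr1i3 (the xenobiotic receptor CAR, chr1:171213720-171213969, plus strand), Creb3l3 (a liver transcription factor of fasting, chr10:81098873-81099122, minus strand) and Ikbkg (the NF-kB regulator NEMO, chrX:74393041-74393290, plus strand) are called genes that hold the AP-1 letters. Gclm (a subunit of the enzyme that starts glutathione synthesis, chr3:122245307-122245556, plus strand) holds the antioxidant core.
Afp: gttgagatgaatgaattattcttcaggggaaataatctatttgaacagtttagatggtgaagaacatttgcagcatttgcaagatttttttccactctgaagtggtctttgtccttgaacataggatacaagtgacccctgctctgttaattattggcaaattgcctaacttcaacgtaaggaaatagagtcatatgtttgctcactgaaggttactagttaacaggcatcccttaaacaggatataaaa
Igfbp2: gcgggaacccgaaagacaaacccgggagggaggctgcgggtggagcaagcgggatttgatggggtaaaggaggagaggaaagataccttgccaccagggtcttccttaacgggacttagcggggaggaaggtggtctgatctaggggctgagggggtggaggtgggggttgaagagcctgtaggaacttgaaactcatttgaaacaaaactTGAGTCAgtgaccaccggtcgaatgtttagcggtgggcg
Nr1i3: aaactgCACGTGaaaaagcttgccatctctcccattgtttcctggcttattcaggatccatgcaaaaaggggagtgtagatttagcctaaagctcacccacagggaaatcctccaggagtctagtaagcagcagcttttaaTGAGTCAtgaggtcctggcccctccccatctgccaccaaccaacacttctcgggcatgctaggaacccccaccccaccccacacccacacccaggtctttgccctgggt
Creb3l3: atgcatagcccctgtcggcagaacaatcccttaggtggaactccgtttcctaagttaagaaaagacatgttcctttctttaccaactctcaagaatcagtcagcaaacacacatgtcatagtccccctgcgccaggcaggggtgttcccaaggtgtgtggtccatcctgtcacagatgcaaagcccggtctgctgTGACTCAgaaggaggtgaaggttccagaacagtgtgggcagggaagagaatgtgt
Ikbkg: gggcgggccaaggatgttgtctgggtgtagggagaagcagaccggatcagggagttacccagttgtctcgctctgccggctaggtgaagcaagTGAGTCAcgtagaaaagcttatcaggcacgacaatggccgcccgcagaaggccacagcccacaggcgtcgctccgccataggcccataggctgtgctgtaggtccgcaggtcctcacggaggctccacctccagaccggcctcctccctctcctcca
Gclm: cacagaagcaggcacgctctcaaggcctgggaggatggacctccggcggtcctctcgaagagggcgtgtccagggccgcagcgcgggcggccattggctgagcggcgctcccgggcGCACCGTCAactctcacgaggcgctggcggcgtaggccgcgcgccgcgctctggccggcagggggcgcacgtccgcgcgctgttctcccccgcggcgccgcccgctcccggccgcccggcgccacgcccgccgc
None of the 4 motifs was found in the Afp window. The AP-1 match begins 39 bases before the start in Igfbp2, at the second of its 2 starts in the table, 109 bases in Nr1i3, 55 bases in Creb3l3 and 157 bases in Ikbkg, the last at 1 of its 4 windows. Of these genes, Nr1i3 fell by 1.39, Creb3l3 by 0.51 and Ikbkg by 0.72, while Gclm rose by 0.52.

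Among genes measured above the filter intensity (28.4) in both groups, the largest increases included enzymes, transporters and growth regulators. Cbr1, a carbonyl reductase that detoxifies ketones and quinones, read 7.85, 7.32, 7.85 and 7.75 with GFP and 10.14, 10.17, 10.45, 10.1 and 10.31 with Jnk1, a rise of 2.54 (SE 0.12, adjusted p = 1.35e-09) or 5.83-fold. Car2, a carbonic anhydrase, rose from 5.67, 5.56, 6.09 and 6.13 to 7.75, 8.42, 8.35, 8.02 and 8.03, a difference of 2.25 (SE 0.16). The groups are far apart for both genes, and vehicle livers lay close to the GFP group: the GFP minus vehicle differences were -0.14 and -0.1. Spc25, a kinetochore subunit needed for chromosome segregation, rose by 2.52, H2aw, a histone H2A gene, by 2.16, and Smoc2, a secreted calcium-binding matrix protein, by 2.08. Slc22a29, an organic anion transporter family member measured by a probe set open to cross-hybridisation with close relatives, rose by 2.5.

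The largest decreases included abundant hepatocyte genes. Cyp2f2, a cytochrome P450, read 11.79, 11.85, 11.84 and 11.75 with GFP and 10.43, 9.91, 9.89, 10.05 and 9.88 with Jnk1, a difference of -1.77 (SE 0.09, adjusted p = 1.84e-09). Upp2, which breaks down uridine, went from 10.06, 10.1, 9.93 and 10.15 to 8.55, 8.44, 7.85, 7.89 and 8.73 (-1.77). Saraf, which limits calcium entry from outside the cell when the endoplasmic reticulum (ER) is refilled, went from 10.6, 10.55, 10.67 and 10.72 to 9.33, 8.86, 8.79, 8.99 and 8.89 (-1.66). The 4 GFP arrays of these genes lie within 0.22 of each other, and the Jnk1 arrays lie at least 1.2 below. Susd4, an inhibitor of complement (-1.85), Cpne3, a calcium-dependent membrane-binding protein (-1.73), Trib1, a pseudokinase of lipid metabolism (-1.71), and Sgk2, a kinase related to Akt (-1.7), fell in the same range.

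Among the smallest p-values were genes with little scatter within groups. Stt3b, a catalytic subunit of the enzyme that attaches N-glycans, read 9.65, 9.53, 9.69 and 9.71 and then 8.28, 8.19, 8.21, 8.22 and 8.11, a difference of -1.44 (SE 0.06, adjusted p = 1.06e-09); a second probe set fell by 0.59. Cd302, a C-type lectin, read 10.83, 10.9, 10.9 and 10.82 and 9.45, 9.25, 9.16, 9.2 and 9.27 (-1.6). Ndrg2, a stress- and differentiation-associated gene, read 11.11, 10.91, 11.08 and 11.06 and 9.53, 9.43, 9.35, 9.52 and 9.78 (-1.52). In each of these genes the range inside a group was smaller than the gap between groups. Timm8a1, a chaperone of mitochondrial import, fell by 1.64, and by 0.78 in its second probe set. Hsd17b6, a steroid and retinol dehydrogenase, rose by 1.78, from 8.9, 9.05, 8.91 and 9.13 to 10.93, 10.8, 10.74, 10.65 and 10.78.

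For some genes 1 group lay under the filter intensity, so the size of the difference is uncertain. Higher with Jnk1 in this class were Afp (5.9), Krt23, a keratin (3.79), Igf2, the fetal growth factor (2.55), Lysmd2 (2.43) and Sox4, a developmental transcription factor (2.51, with a second probe set at -0.06). Lower were F3, tissue factor, the trigger of coagulation (-1.86), Olig1 (-1.85) and Dntt (-1.33). Igf2 shows the limit: its GFP arrays read 3.36, 5.74, 4.12 and 5.54 and its vehicle arrays 5.65, 3.45, 3.62, 5.88 and 3.34, a scatter wider than that of the Jnk1 arrays, 7.47, 6.85, 7.91, 6.81 and 7.17, and with the spike-in covariate its adjusted p was 0.0605. Among 1119 called genes with a second kept probe set, that probe set had the same sign in 1017 (90.9%), was called in the same direction in 637 and in the opposite one in 7.

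**Figure D3:**
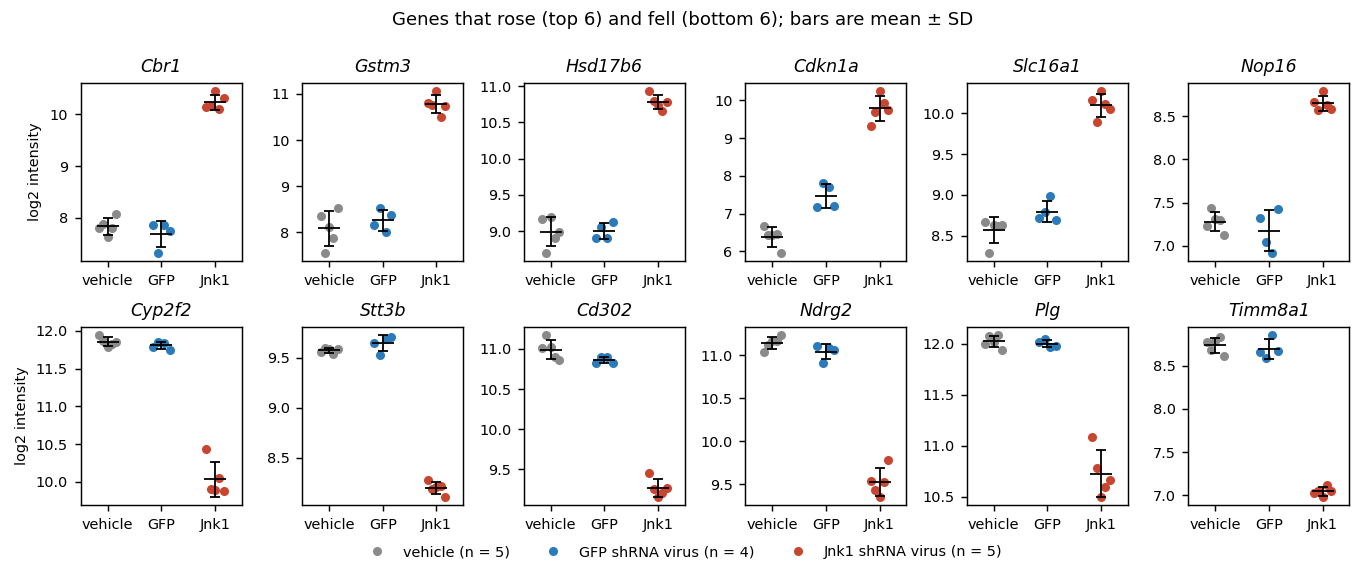
Log2 intensity (vertical axis, a separate scale per gene) of 6 genes that rose and 6 that fell, with 1 point per array for vehicle (grey, n = 5), GFP shRNA virus (blue, n = 4) and Jnk1 shRNA virus (red, n = 5) and bars for mean ± SD. The Jnk1 points do not overlap the GFP points in any of the 12. The genes were picked for non-overlapping arrays or small p, so this follows largely from the choice. Over all 8027 genes tested 28.9% did not overlap. For Cdkn1a the GFP points (7.18 to 7.80) lie above the vehicle points (5.96 to 6.67).

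Drug-metabolising genes moved in both directions. Cytochrome P450 enzymes oxidise drugs, steroids and fatty acids; of 48 on the array 40 were tested, 13 rose and 13 fell (11 and 9 with median scaling), and the median difference was 0.06. Cyp2b9, a family member typical of female mouse liver, read 6.66, 5.66, 6.48 and 6.72 with GFP and 9.91, 10.33, 10.37, 9.13 and 9.39 with Jnk1, a rise of 3.45 (SE 0.37). Cyp2c55 also rose (1.67), while Cyp1a2, the caffeine-metabolising P450, fell from 10.78, 10.8, 10.29 and 10.62 to 9.79, 9.51, 9.68, 9.05 and 9.11 (-1.19, SE 0.15). Cyp2c50 (-1.07), Cyp2c54 (-1.77) and Cyp4f15 (-1.16) fell. Close relatives within the Cyp2c family can share probes, which the deposited values cannot resolve. Nr1i3, the receptor CAR that switches on several P450 genes, read 7.64, 7.42, 7.83 and 7.74 and 6.75, 6.27, 6.01, 5.77 and 6.52 and fell by 1.39 (adjusted p = 1.36e-05).

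Glutathione transferases, which couple reactive compounds to glutathione, were called higher more often than the background share. Of 19 tested 10 rose and 1 fell, with a median of 0.32; 12 rose and 1 fell with median scaling, and 9 rose and 4 fell with the values as deposited. Gstm3 read 8.16, 8.53, 8.0 and 8.37 with GFP and 10.8, 10.77, 11.06, 10.51 and 10.74 with Jnk1, a difference of 2.51 (SE 0.17, adjusted p = 4.63e-08), in a probe set that can detect more than 1 gene. Gsta4, which clears products of lipid peroxidation, went from 7.1, 7.23, 7.31 and 7.35 to 9.2, 9.2, 9.04, 9.06 and 9.19 (1.89, SE 0.15). Both genes were separated by more than 1.5 between the closest arrays. Mgst3 (1.43), Gsta2 (1.46), Gstm4 (1.14), Gstk1 (1.11) and Gstm1 (1.04) rose. Gstz1, which acts in tyrosine breakdown, fell (-0.58).

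Conjugation with glucuronic acid or sulfate went the other way: of 16 such transferases and helpers tested, 9 fell and 3 rose, with a median of -0.83. Ugt2a3 read 10.47, 10.47, 10.4 and 10.62 with GFP and 8.68, 9.04, 8.46, 8.83 and 9.31 with Jnk1 (-1.62, SE 0.13). Sult5a1 fell by 1.39, Sult1a1 by 1.07, Ugt2b1 by 0.95, Ugt3a1 by 0.94, and Papss2, which makes the sulfate donor, by 0.77. Sult1c2 was among the 3 that rose (1.56). With median scaling 8 fell and 4 rose.

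Antioxidant genes that answer to the transcription factor NRF2 were closer to the background: of 25 tested 7 rose and 2 fell (8 and 2 with median scaling). Me1, malic enzyme, rose by 1.36, Gpx4, which reduces lipid peroxides, by 0.65, Prdx3, a mitochondrial peroxiredoxin, by 0.57 and Gclm by 0.52. Nfe2l2, which encodes NRF2, gave -0.1 (SE 0.18), with 0.19 under the spike-in covariate and 0.10 with median scaling. Hmox1, heme oxygenase, read 7.68, 7.92, 6.7 and 6.72 and 7.79, 7.26, 7.68, 7.51 and 6.41; the groups overlapped and the difference of 0.08 changed sign in 5 alternatives. Of 55 aldehyde, ketone and retinoid enzymes tested 14 rose and 9 fell, 17 rose and 4 fell with median scaling, and 13 rose and 14 fell with values as deposited. Aldh1a7, an aldehyde dehydrogenase, rose by 0.8 and Ces1d, a carboxylesterase, by 1.0.

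**Figure D4:**
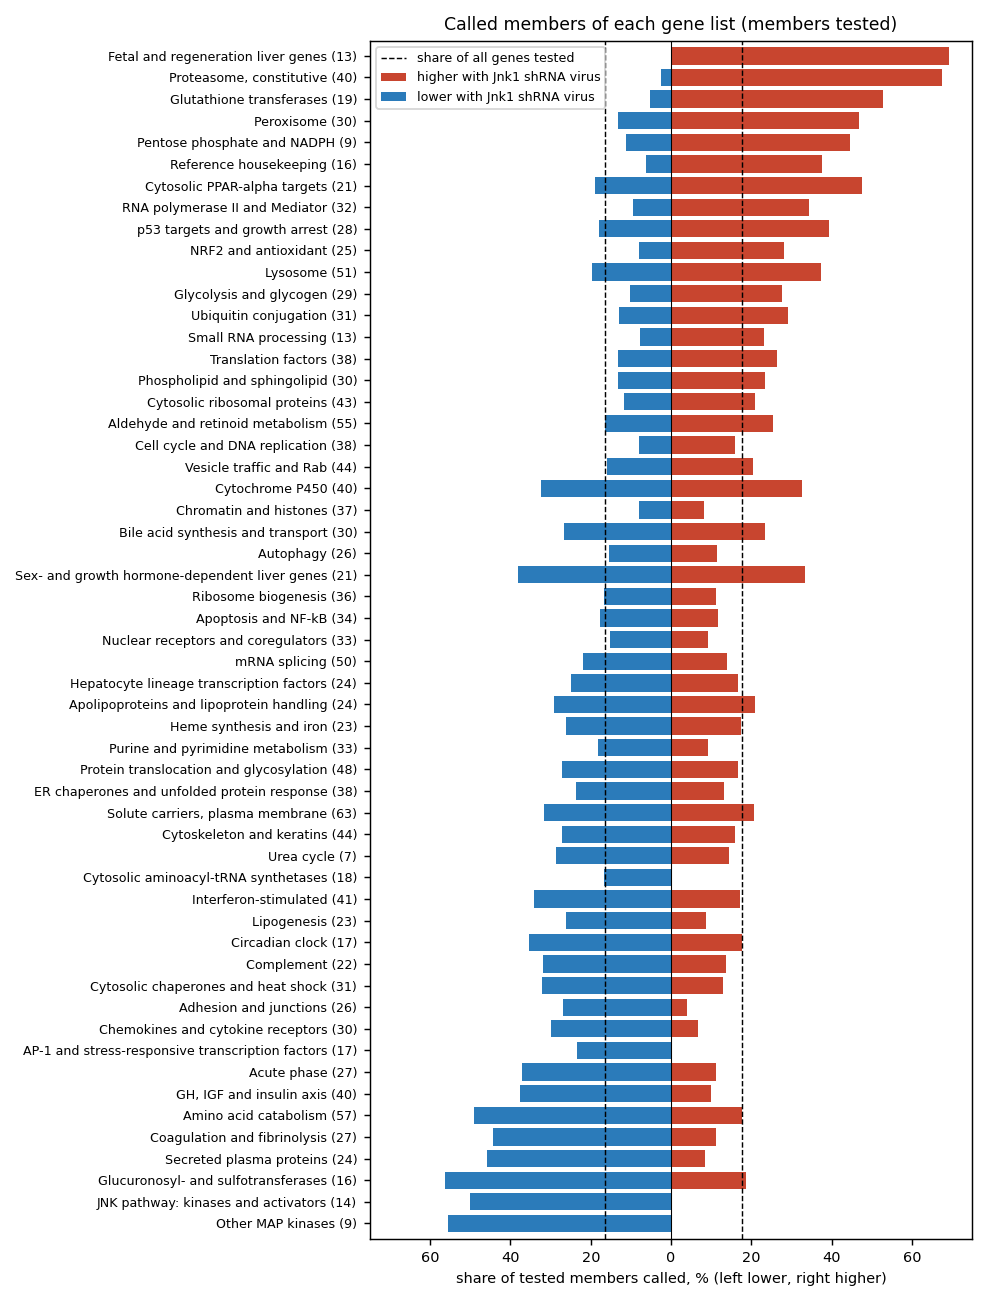
Horizontal bars give the share of each list's tested members (number in brackets) that were called, in percent, to the right for higher and to the left for lower with the Jnk1 shRNA virus. Dashed lines mark the share of all 8027 genes tested, 17.7% higher and 16.5% lower. Proteasome genes were called higher in 67.5% and glutathione transferases in 52.6%, and the lists share some genes.

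Many enzymes of amino acid breakdown were lower. Of 57 tested 28 (49.1%) fell and 10 (17.5%) rose, against 16.5% and 17.7% of all genes, with a median of -0.23. With median scaling 12 fell and 11 rose, and with values as deposited 29 fell and 8 rose. Prodh, the first enzyme of proline breakdown, read 9.15, 8.84, 8.75 and 8.75 with GFP and 7.02, 6.35, 6.06, 6.33 and 5.92 with Jnk1, a difference of -2.54 (SE 0.17, adjusted p = 3.53e-08). Hal, which starts histidine breakdown, fell by 1.32, Bhmt2, a methyltransferase of methionine salvage, by 1.05, and Aass, of lysine breakdown, by 0.94. The sulfur branch was mixed. Csad, which makes the taurine precursor, rose from 7.12, 7.72, 8.38 and 7.92 to 10.34, 10.42, 10.63, 10.36 and 10.75 (2.71, SE 0.2), and Cth, which makes cysteine, rose by 0.71. Cdo1, which oxidises cysteine one step before Csad, fell by 0.48.

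Of 7 urea cycle genes and transporters, 2 fell and 1 rose (2 and 2 with median scaling). Slc25a15, the ornithine carrier of mitochondria, fell by 0.84 (second probe set -1.02), and Otc by 0.39, with 1 of its 2 other probe sets at 0.29 (adjusted p = 0.281). Slc25a13, the aspartate-glutamate carrier, rose by 0.5. Cps1, the rate-limiting enzyme, gave -0.11 (adjusted p = 0.0839). In nucleotide metabolism 6 of 33 genes fell and 3 rose, and 4 fell and 6 rose with median scaling. Dpys, of pyrimidine breakdown, fell by 0.77 and Xdh, which makes uric acid, by 0.82.

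Of 63 plasma membrane transporters tested, 20 (31.75%) fell and 13 (20.63%) rose, against 16.5% and 17.7% of all genes. With median scaling 11 fell and 15 rose. Slc16a1, a carrier of lactate and ketone bodies, read 8.72, 8.79, 8.98 and 8.69 with GFP and 10.16, 9.89, 10.27, 10.11 and 10.05 with Jnk1 (1.3, SE 0.1). Slc44a1, a choline carrier, rose by 0.89. Slc38a3, a glutamine carrier (-1.04), Slc1a2, a glutamate carrier (-1.2), and Slc31a1, the copper importer (-0.91), fell. Slc31a1 had little scatter, with 8.98, 8.97, 8.93 and 8.95 against 8.12, 8.02, 8.01, 7.97 and 8.12.

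Plasma proteins made by the liver were lower in part. Of 27 coagulation and fibrinolysis genes tested 12 (44.4%) fell and 3 (11.1%) rose, against 16.5% and 17.7% of all genes. With median scaling 4 fell and 4 rose, and with values as deposited 16 fell and 4 rose. Plg, plasminogen, read 12.01, 12.04, 11.97 and 11.98 with GFP and 11.09, 10.78, 10.5, 10.6 and 10.67 with Jnk1, a difference of -1.27 (SE 0.09, adjusted p = 4.68e-08). Proz, protein Z, fell by 1.01 and Serpinf2, the plasmin inhibitor, by 0.52. The procoagulant factor V gene F5 and the anticoagulant Proc differed by -0.34 and -0.29, calls that were lost with median scaling. In contrast F11 rose by 0.67 and F10 by 0.39.

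Of 22 complement genes tested 7 fell and 3 rose (5 and 3 with median scaling). Masp1, a protease of the lectin pathway, read 8.8, 8.54, 8.56 and 8.44 with GFP and 6.5, 6.41, 6.37, 6.27 and 6.34 with Jnk1 (-2.21), but its other 3 probe sets gave -0.24, -0.57 and -0.27 and only the one at -0.57 was called. C8b (-0.87) and C6 (-0.62), parts of the membrane attack complex, fell, while Mbl2, a mannose-binding lectin, rose (0.52). Of 27 acute phase genes 10 fell and 3 rose (5 and 3 with median scaling). Saa3 rose from 6.39, 7.32, 7.13 and 6.69 to 8.74, 8.97, 9.87, 9.37 and 9.28 (2.37, SE 0.38), while Lrg1 (-1.19), Fgl1 (-0.96) and Itih1 (-0.69) fell. Saa3 is an acute phase apolipoprotein also made outside hepatocytes.

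Of 24 other secreted plasma proteins tested 11 fell and 2 rose; 21 fell with values as deposited, 5 with median scaling and 6 with the spike-in covariate. Ang, angiogenin, read 10.3, 10.71, 9.93 and 10.3 with GFP and 9.36, 8.89, 8.97, 8.94 and 9.11 with Jnk1 (-1.26, SE 0.12). Fetub (-0.71) and Hrg (-0.54), both carrier-like plasma glycoproteins, fell, and Angptl4, an inhibitor of lipoprotein lipase, rose (1.04). Alb, albumin, gave -0.04 (SE 0.05, adjusted p = 0.608), at an intensity close to the top of the scale of these arrays.

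Of 30 bile acid genes tested 7 rose and 8 fell, and 9 rose and 3 fell with median scaling. Nr0b2, the repressor SHP, rose from 5.9, 6.39, 6.44 and 5.84 to 8.17, 8.56, 8.25, 8.29 and 8.41, a difference of 2.2 (SE 0.48, adjusted p = 0.00214); vehicle arrays spread from 3.39 to 6.67, and with the spike-in covariate the adjusted p was 0.0827. Akr1d1, a steroid reductase of bile acid synthesis, went from 9.33, 9.3, 9.16 and 9.32 to 10.36, 10.58, 10.45, 10.48 and 10.45 (1.18, SE 0.07), and Cyp39a1, an oxysterol hydroxylase, rose by 1.54. Cyp27a1, of the alternative synthesis pathway (-0.51), Slc27a5, which activates bile acids for conjugation (-0.66), and Slco1a1, an uptake carrier (-1.52), fell. In heme and iron metabolism 6 of 23 genes fell and 4 rose (3 and 7 with median scaling). Alas2, the red-cell form of the first enzyme of heme synthesis, fell by 2.02 and Slc25a37, the iron carrier of mitochondria, by 0.79, while Hfe, a regulator of iron sensing, rose by 0.32.

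Carbohydrate genes were called in both directions. Of 29 glycolysis and glycogen genes 8 rose and 3 fell (9 and 2 with median scaling). These are 27.6% and 10.3%, against 17.7% and 16.5% of all genes tested, and median scaling moved the calls of all probe sets upwards too. Of 9 genes of the pentose phosphate pathway and NADPH supply 4 rose and 1 fell (4 and 0). With the spike-in covariate 4 rose and 2 fell in the first list and 4 rose and 1 fell in the second. Pgam1, a glycolytic mutase, read 9.44, 9.31, 9.29 and 9.34 with GFP and 10.14, 10.11, 10.27, 10.31 and 10.22 with Jnk1 (0.87). Pgm1, which links glycogen to glycolysis, rose by 0.54 and Gbe1, the glycogen branching enzyme, by 0.73, while Galt, of galactose use, fell by 0.59. Pgd and Taldo1, of the pentose phosphate pathway, rose by 1.03 and 0.71. H6pd, the ER counterpart that makes NADPH there, differed by -0.63, a call lost without GFP array 3 and with median scaling.

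Of 30 peroxisomal genes tested 14 rose and 4 fell (14 and 1 with median scaling), and of 21 cytosolic or secreted targets of PPAR-alpha, the fasting receptor, 10 rose and 4 fell (10 and 3). Pdk4, which blocks glucose oxidation, rose from 5.68, 4.49, 4.96 and 4.62 to 7.02, 7.97, 8.25, 7.3 and 6.91 (2.55, SE 0.28). Cyp4a14, a fatty acid hydroxylase, read 8.8, 7.97, 9.97 and 9.49 and 10.83, 11.38, 11.31, 10.32 and 10.43 (1.8, SE 0.39). Scatter was wide in both genes, and neither showed overlap between the groups, which for Pdk4 was a condition of its choice among the largest changes. Acot8 (1.12), Ehhadh (0.98), Pex19 (0.62) and Abcd3 (0.41), which act in peroxisomal import or fat oxidation, rose, while Phyh, of phytanic acid oxidation, fell (-0.35). Lpl, lipoprotein lipase, was raised over the GFP group by 0.94 and in the GFP group over vehicle by 1.04 (adjusted p = 0.000436). Fabp2 (-0.53) and Creb3l3 (-0.51) fell.

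Of 23 lipogenic genes 6 fell and 2 rose (3 and 2 with median scaling). Fads1, a desaturase of polyunsaturated fats, read 10.62, 10.31, 10.72 and 10.4 with GFP and 9.79, 9.53, 9.44, 9.25 and 9.59 with Jnk1 (-0.99, SE 0.11). Lpin2, a phosphatidate phosphatase, fell by 0.83 and Elovl6, an elongase, by 0.67. Of 30 phospholipid and sphingolipid genes 7 rose and 4 fell (13 and 1 with median scaling): Ptdss2, which makes phosphatidylserine (1.0), Chkb, a choline kinase (0.8), and Smpd1, acid sphingomyelinase (0.67), rose, and Cers5, a ceramide synthase, fell (-0.62). Of 24 lipoprotein genes 5 rose and 7 fell; 5 fell with median scaling and 12 with values as deposited. Sar1b, needed to export lipoprotein particles from the ER, rose from 10.99, 10.93, 10.93 and 10.94 to 11.64, 11.52, 11.64, 11.52 and 11.58 (0.63), while Apom (-0.81) and Apon (-0.46) fell.

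The proteasome, which degrades ubiquitin-tagged proteins, was called higher in most of its genes. All 40 constitutive proteasome genes on the array were tested: 27 rose, 1 fell and 12 were not called, with a median of 0.27, and 31 rose with median scaling, 27 with values as deposited and 17 with the spike-in covariate. The changes were small. Psmb6, a catalytic subunit, read 8.5, 9.05, 8.46 and 8.57 with GFP and 9.42, 9.36, 9.42, 9.4 and 9.46 with Jnk1 (0.77, SE 0.11). Psmf1, a regulator of proteasome activity, rose by 0.64, Psmb7, another catalytic subunit, by 0.58, Psmc1, an ATPase of the cap, by 0.5, Psma6 by 0.49 and Psmb3 by 0.45. The mean of all 40 genes, set to 0 in the GFP group, was 0.26, 0.35, 0.32, 0.28 and 0.28 on the 5 Jnk1 arrays and between -0.05 and 0.03 on the GFP arrays. The spike-in means of the same 5 Jnk1 arrays were 7.92, 8.79, 8.33, 8.38 and 8.52, and their part in the list means was not tested.

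**Figure D5:**
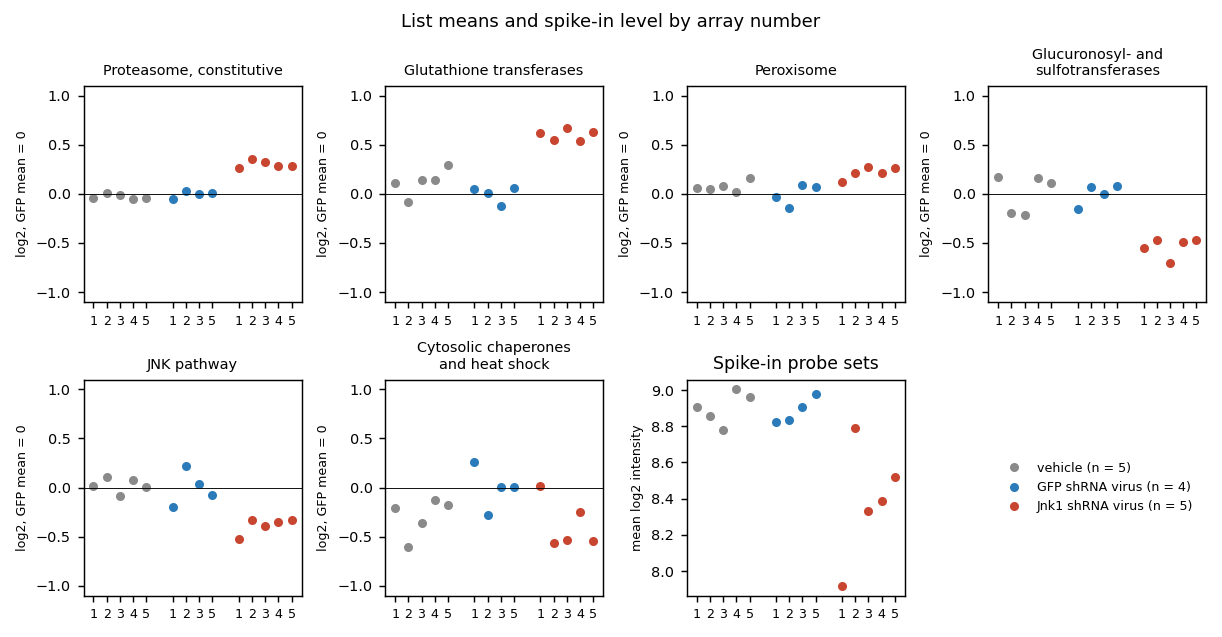
The first 6 panels plot the mean log2 intensity of the tested members of a list on each array, relative to the mean of the GFP group, and the last panel the mean log2 intensity of the 18 spike-in probe sets; the horizontal axis is the array number within vehicle (grey), GFP shRNA virus (blue) and Jnk1 shRNA virus (red). Proteasome means lie at 0.26 to 0.35 on the Jnk1 arrays, above all GFP arrays, while spike-in levels run from 7.92 to 8.79 there.

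Of 31 ubiquitin genes 9 rose and 4 fell (11 and 1 with median scaling); Nedd8, a ubiquitin-like modifier, rose by 0.69 and Ube2z, a conjugating enzyme, fell by 0.85. Of 51 lysosomal genes 19 rose and 10 fell (22 and 2 with median scaling). Gla, alpha-galactosidase (1.3), Gm2a, the GM2 activator (0.63), Atp6v1a, a proton pump subunit (0.58), and Grn, progranulin (0.53), rose, and Naglu, of heparan sulfate breakdown, fell (-1.18). Of 26 autophagy genes 3 rose and 4 fell, and 6 rose and 2 fell with median scaling. Atg12, of the conjugation system that builds autophagosomes, rose by 1.31, and Map1lc3a, a marker of autophagosomes, fell from 7.53, 7.24, 7.72 and 7.56 to 6.49, 6.46, 6.48, 6.42 and 6.35 (-1.07).

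In the ER, chaperone and unfolded protein response genes numbered 9 lower and 5 higher of 38, and 3 lower and 6 higher with median scaling. Pdia3, a disulfide isomerase for glycoproteins, read 10.84, 10.72, 10.93 and 10.89 with GFP and 9.8, 9.59, 9.46, 9.42 and 9.47 with Jnk1 (-1.3, SE 0.09, adjusted p = 3.94e-08). Hspa5, the main ER chaperone BiP, fell by 0.63 and Derl2, of ER-associated degradation, by 0.4, with its other probe set at 0.14. Translocation and glycosylation genes split into 13 lower and 8 higher of 48 (5 and 16 with median scaling). Ganab, which trims N-glycans, fell by 1.29, alongside Stt3b above, while Ostc, another part of the glycan-transfer complex, rose by 0.83 and Ssr2, of the translocon, by 0.73. Of 31 cytosolic chaperone and heat shock genes 10 fell and 4 rose (6 and 5 with median scaling); Hspb8 fell by 1.07, with 1 of its 2 other probe sets at 0.37, and the mitochondrial chaperones Hspa9 and Hspd1 by 0.69 and 0.57.

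Of 43 cytosolic ribosomal protein genes 9 rose and 5 fell (10 and 1 with median scaling), of 38 translation factors 10 rose and 5 fell (11 and 0), and of 18 cytosolic aminoacyl-tRNA synthetases 3 fell and 0 rose (1 and 1). Rps3a1 fell by 0.43 and Fau rose by 0.49. Eif2b1 and Eif3k, initiation factors, rose by 0.76 and 0.74, and Aars, the alanine synthetase, fell by 0.58. In ribosome biogenesis 6 of 36 fell and 4 rose (3 and 5 with median scaling). Nop16 went from 7.32, 7.04, 6.92 and 7.43 to 8.67, 8.57, 8.79, 8.63 and 8.58 (1.47, SE 0.11, adjusted p = 8.56e-08) and Nhp2 rose by 0.84, while Nolc1 fell by 0.78; all 3 encode nucleolar proteins. Of 44 vesicle traffic genes 9 rose and 7 fell (18 and 3 with median scaling), and the GTPases Rab14 (-0.95) and Rab10 (-0.74) fell in 4 of 5 and 3 of 3 probe sets.

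Growth arrest genes were called in both directions. Cdkn1a, the cell-cycle inhibitor p21, read 7.18, 7.8, 7.69 and 7.2 with GFP and 9.33, 9.7, 10.24, 9.92 and 9.75 with Jnk1, a rise of 2.32 (SE 0.18, adjusted p = 1.83e-07) or 5.00-fold. Vehicle livers read 6.67, 6.42, 6.43, 6.45 and 5.96, so the GFP group was itself 1.08 higher than vehicle (adjusted p = 0.0032). Ccng1, cyclin G, a p53 target, read 7.97, 7.77, 7.85 and 8.05 and 8.84, 9.45, 9.72, 9.33 and 9.31 (1.42, SE 0.13). Of 28 p53 targets and arrest genes tested 11 rose and 5 fell, 13 rose and 3 fell with median scaling, and 5 rose and 1 fell with the spike-in covariate. Sesn2 (1.25), Polk (0.68) and Ei24 (0.57) rose. Members fell too: Btg2, an antiproliferative gene, went from 9.25, 10.28, 9.83 and 9.25 to 8.06, 7.78, 7.89, 8.77 and 8.33 (-1.49, SE 0.33; adjusted p = 0.062 with the covariate), Trp53inp1 fell by 1.42 and Plk3 by 0.69.

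Of 58 cell cycle and replication genes on the array 38 were tested, 6 rose and 3 fell, and 11 rose and 1 fell with median scaling. Cks2, a partner of cyclin-dependent kinases (1.2), Cdc25a, a phosphatase that starts division (1.17), and Rrm1, a ribonucleotide reductase subunit (0.75), rose. Ccnd1, cyclin D1, fell by 0.59 against GFP but read 6.91 ± 0.13 (SD, n = 5) beside 7.04 ± 0.17 (SD, n = 5) with vehicle. For Rrm1 the GFP minus vehicle difference was 0.51 (adjusted p = 0.0132). Of 34 apoptosis and NF-kB genes 6 fell and 4 rose (3 and 5 with median scaling). Ikbkg, the NF-kB regulator, read 7.89, 8.17, 8.02 and 8.22 and 7.29, 7.31, 7.09, 7.5 and 7.58 (-0.72; adjusted p = 0.068 with the spike-in covariate), and Mcl1, a survival protein, fell by 0.52, while Bok rose by 1.08 and Fadd by 0.49. Bok and Fadd stood within 0.29 of vehicle in the Jnk1 group.

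Of 21 genes of fetal or regenerating liver on the array 13 were tested. Of these 9 (69.2%) rose and 0 fell, against 17.7% and 16.5% of all genes. Afp, Krt23 and Igf2 had means under the filter in both the GFP and the vehicle group and were tested only because of the Jnk1 arrays, so the filter partly sets the direction of this count. Besides Afp and Igf2, Peg3, an imprinted gene, read 5.07, 4.49, 5.24 and 4.96 with GFP and 6.55, 6.65, 6.47, 6.37 and 6.19 with Jnk1 (1.51, SE 0.23). Abcd2, a peroxisomal transporter (1.31), Gpc3, a cell-surface proteoglycan (1.23), Plagl1 (0.86) and Cd24a (0.7) rose; the Cd24a call was lost without GFP array 1 or 3. Zbtb20, a repressor of Afp in adult liver, went from 8.43, 8.11, 8.62 and 8.34 to 7.13, 6.97, 6.5, 6.81 and 6.98 (-1.5, SE 0.14, adjusted p = 1.06e-06), and its other 2 probe sets fell by 1.36 and 1.74. Of 24 lineage transcription factors 6 fell and 4 rose (5 and 4 with median scaling); Id2 fell by 0.9. Of 33 nuclear receptors and partners 5 fell and 3 rose, and 3 fell and 4 rose with median scaling; Nr2c1 rose by 0.68.

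The growth hormone, IGF and insulin axis had 15 lower and 4 higher genes of 40 (7 and 5 with median scaling). Gcgr, the glucagon receptor, read 8.76, 8.38, 8.72 and 8.72 with GFP and 7.74, 7.64, 7.5, 7.52 and 7.7 with Jnk1 (-1.03, SE 0.1). Egfr, the epidermal growth factor receptor, fell by 0.88, with 3 of its other 4 probe sets between -1.43 and -1.63, and Cish, a feedback inhibitor of growth hormone signalling, by 0.81. Among 21 genes that depend on sex or on growth hormone pulses 7 rose and 8 fell (6 and 6 with median scaling). Hsd3b5, typical of male liver, read 10.46, 10.47, 10.47 and 10.41 and 9.4, 8.49, 6.76, 9.02 and 8.56 (-2.01, SE 0.35), with Jnk1 array 3 lowest. Mup5, a major urinary protein (-1.5), also fell, but Cyp4a12a, likewise a male-typical gene, rose (1.06), and so did Cyp17a1, of steroid synthesis (1.89). Mup and Cyp4a genes have near-identical copies that the array may not separate.

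Cell structure genes were mixed. Of 44 cytoskeletal genes 12 fell and 7 rose (5 and 10 with median scaling). Tpm2, a tropomyosin, fell by 1.21, and Krt18, the main hepatocyte keratin, went from 10.5, 11.4, 10.74 and 10.89 to 9.6, 9.86, 9.59, 10.03 and 9.79 (-1.11, SE 0.2; adjusted p = 0.0508 with the spike-in covariate), while Actn4 rose by 0.42. Of 26 adhesion and junction genes 7 fell and 1 rose (5 and 4 with median scaling). Cdh2, N-cadherin (-0.81), and the tight-junction claudins Cldn2 (-0.64) and Cldn1 (-0.63) fell. Itgb5, an integrin, fell by 0.67 in its brightest probe set, and its other 3 were not called.

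Interferon-stimulated genes need the vehicle group beside them, because their median was 1.01 above vehicle in the GFP virus group and 0.94 above it in the Jnk1 virus group. Over all 8027 genes, 225 (2.8%) were called between GFP virus and vehicle, 175 (2.18%) higher and 50 lower. Of 41 interferon-stimulated genes tested 14 fell and 7 rose between the viruses (13 and 13 with median scaling). Igtp, an immunity-related GTPase, read 9.27, 8.06, 8.13, 8.26 and 8.58 with vehicle, 11, 11.36, 10.97 and 11.26 with GFP virus and 9.89, 9.92, 10.08, 9.92 and 10.44 with Jnk1 virus. The Jnk1 group was thus 1.1 below the GFP group and 1.59 above vehicle. Gbp6, a guanylate-binding protein, gave -1.34 against GFP and 1.3 against vehicle, and Psmb10, an immunoproteasome subunit, -0.57 and 0.74. Parp9 gave -1.29 against GFP and -0.57 against vehicle. Rsad2, the antiviral enzyme viperin, went the other way: 8.21, 7.41, 6.95, 7.52 and 7.83 with vehicle, 8.77, 10.67, 8.87 and 9.4 with GFP and 10.69, 11.24, 11.58, 11.5 and 11.8 with Jnk1, a further rise of 1.93 (SE 0.34). Lgals3bp, a secreted galectin ligand, rose by 1.25. Since these comparisons share arrays, their values are set side by side only.

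Of 30 chemokine and cytokine-receptor genes 9 fell and 2 rose (3 and 2 with median scaling). Cxcl12, a chemokine of endothelial and stromal cells, read 8.98, 8.59, 9.0 and 8.74 with GFP and 9.75, 9.99, 10.15, 10.26 and 10.34 with Jnk1 (1.27, SE 0.13), but its other probe set gave -0.25 (adjusted p = 0.0632), so the probe sets disagree. Il6st, the shared receptor of the interleukin-6 family, fell by 0.47 and Il18 by 0.44; both calls were lost with median scaling.

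In the RNA machinery, of 32 RNA polymerase II, general factor and Mediator genes 11 rose and 3 fell (16 and 1 with median scaling). Med6 rose by 0.97, Gtf2e2 by 0.64 and Polr2f by 0.62, although the other Polr2f probe set gave -0.29 (adjusted p = 0.714). Of 50 splicing genes 11 fell and 7 rose, and 1 fell and 14 rose with median scaling. Hnrnpa2b1 (-0.43), U2af1 (-0.41) and Tra2b (-0.82) fell with quantile normalization. Of 37 chromatin genes 3 rose and 3 fell, and 7 rose and 1 fell with median scaling; Smarca2, an ATPase that moves nucleosomes, fell by 1.09.

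Small RNA processing genes encode the machinery that a hairpin uses. Of 13 tested 3 rose and 1 fell (4 and 1 with median scaling). Snd1, a nuclease partner of the silencing complex, read 8.15, 8.26, 8.49 and 8.19 with GFP and 7.46, 7.12, 7.47, 7.38 and 7.51 with Jnk1 (-0.88, SE 0.09). Tarbp2 and Prkra, partners of Dicer, rose by 3.05 and 0.57; the GFP arrays of Tarbp2 ranged from 1.69 to 5.38, on both sides of the filter (4.83), so its size is uncertain. Dicer1 itself differed by 0.3 (adjusted p = 0.0316), a call lost with values as deposited.

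Markers of other cell types moved with the comparison, and in bulk liver fewer cells of a type and less RNA per cell cannot be told apart. Of 8 hepatocyte markers tested 1 fell, and their summed intensity lay between 37750 and 38500 with GFP and between 35980 and 38230 with Jnk1. Quantile normalization gives every array the same set of intensities, and these markers include some of the brightest genes. Their sum is therefore held nearly constant and cannot show whether hepatocyte content changed. Kupffer and macrophage markers were lower, 7 of 9 tested, with sums of 4745 to 5306 with GFP and 2580 to 3196 with Jnk1. Their vehicle sums, 2881 to 4759, overlapped the Jnk1 range, and their median was 0.33 above vehicle with GFP and -0.26 from it with Jnk1. Endothelial (4 of 10 lower, 1439 to 1776 against 1030 to 1254) and stellate or fibroblast markers (5 of 7 lower, 2495 to 2831 against 1745 to 1976) were also lower. Vehicle sums of these were 1583 to 1680 and 2427 to 2579, above all Jnk1 arrays. Of the other types, 0 of 3 T and NK cell, 0 of 3 neutrophil and 0 of 2 platelet markers tested were called, 1 of 3 B cell and 1 of 2 erythroid markers (Alas2) fell, 0 of 1 adipocyte and 0 of 1 muscle markers were called, and all 7 bile duct markers on the array lay under the filter. Of 2 exocrine pancreas markers 1 rose (sums of 762.7 to 1108 with GFP and 1029 to 1465 with Jnk1), and of 2 kidney and gut epithelium markers 1 fell (1038 to 1205 against 722.4 to 895.6). The part of cell composition in the cytokine, adhesion, interferon and acute phase results was not tested. Of 16 reference genes commonly used as constant, 6 rose and 1 fell, 5 rose and 0 fell with median scaling, and 4 rose and 4 fell with values as deposited; their median was 0.00.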

How the data were processed

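Liver RNA of 14 samples had been labelled with biotin and read on 1 array each. The authors deposited linear probe set intensities, which by their values were scaled to a common 2% trimmed mean near 150 per array; the software is not given in the sources used here. Intensities were quantile normalized, floored at their 5th percentile and put on the log2 scale, and 64 control probe sets and the lowest 40% by mean were left out. The 3 groups were fitted with limma 3.58.1 (R 4.3.3, variance trend, Benjamini-Hochberg adjustment over 13576 probe sets), and summaries were made with Python 3.11.15 and pandas 2.3.3. Each gene is represented by its probe set of highest mean; 691 probe sets with several symbols and 1606 with none were not named. The fit was tested on simulated data.

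Genes were named by rule: JNK pathway and AP-1 members, the largest non-overlapping changes above and below the filter, the 12 smallest p-values, and up to 8 members per list by p. Members, lists and motifs were chosen with earlier results of these data known. Lists of mitochondrial respiration, antigen presentation and macrophages were left out. The number of arrays limits the precision. Alternatives covered scaling, filter, floor, variance model, array weights, covariate, block, call threshold and omission of each array.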

Additional observations from a re-analysis of the deposited data

Results flagged for a closer look

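Of 498 groups of 4 or 5 arrays examined, 20 held an array whose gap to its nearest neighbour was large for the group's range by Dixon's criterion; chance flags about 1 in 20 groups. GFP array 2 stood apart in Smoc2 (5.73, against 4.81 to 4.88 on the others), Cyp2c50 (11.49, against 11.41 to 11.42), U2af1 (9.24, against 8.88 to 8.91), Slc1a2 (7.29, against 7.66 to 7.71), Gcgr (8.38, against 8.72 to 8.76), Abcd3 (11.09, against 11.23 to 11.26) and Grn (11.09, against 11.15 to 11.16). The same array had a median intensity of 58.34, against 45.78 to 47.83, and a mean correlation with its own group of 0.94, against 0.96 to 0.97. GFP array 1 stood apart in Gtf2e2 (7.23, against 7.06 to 7.08), and GFP array 5 in the Gapdh 3′ minus 5′ difference (-0.61, against -0.53 to -0.52).

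Jnk1 array 3 stood apart in Map2k4 (7.45, against 7.27 to 7.30), Cers5 (6.38, against 6.11 to 6.18), Sesn2 (6.78, against 6.27 to 6.41), Ugt3a1 (8.16, against 8.68 to 8.77) and Cldn2 (8.78, against 9.16 to 9.26). Jnk1 array 1 stood apart in Cpne3 (7.72, against 7.03 to 7.21), Hnrnpa2b1 (9.65, against 9.82 to 9.89) and its largest intensity (4332, against 5273 to 5522), and Jnk1 array 5 in Apon (11.25, against 11.07 to 11.12).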

How the results depend on the processing

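Mapk8 stayed lower and called under every alternative, from -1.51 to -1.14, and from -1.39 to -1.26 when single arrays were left out. The 4497 calls (2350 higher, 2147 lower) became 2349 (1216 and 1133) with the spike-in covariate, 1342 (668 and 674) with the Jnk1 array of highest spike-in level alone, an alternative chosen after seeing the data in which the lone array is assumed to vary like the other groups, and 2873 (1523 and 1350) at an adjusted p under 0.01. With median scaling 1144 were lower and 2986 higher. With values as deposited 2539 were lower and 2218 higher, and with scaling to the same 75th percentile 2472 and 2203. Omission of single arrays gave 3841 to 4590 calls, 1993 to 2410 higher and 1848 to 2180 lower. Spike-in differences then ranged from -0.5973 to -0.3793, Gapdh 3′ minus 5′ differences from 0.07678 to 0.1116, largest-intensity differences from -2476 to -1888 and array-median differences from -6.754 to -2.568; without any 1 GFP array the first 2 no longer passed.

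Deviations of same-numbered arrays had correlations of 0.0794, -0.0986, -0.025 and 0.0697, and those of differently numbered arrays ran from -0.0774 to 0.12. The labels do not say whether the numbers pair the samples, and these few correlations cannot decide it. With the replicate block 4101 probe sets were called (2144 higher, 1957 lower), and Mapk8 gave -1.32. Of 233 called genes named, 225 stayed called without any 1 array, 201 with the spike-in covariate and 214 with median scaling, and 0 reversed. These genes were named mainly for small p or large changes in the same fit, which favours calls that last. Over all probe sets the covariate left 2349 calls in place of 4497. Uncalled genes changed sign: Map2k4 (0.01), Atf2 (0.11) and Nfe2l2 (0.10) with median scaling; Jun (-0.59), Hmox1 (-0.59) and Nfe2l2 (0.19) with the covariate; Jun (-0.04) and Hmox1 (-0.04) without Jnk1 array 1, Hmox1 also without Jnk1 array 3 (-0.01), GFP array 3 (-0.11) or GFP array 5 (-0.10), and Mapk9 (-0.04) without Jnk1 array 2. Over the omissions Mapk9 ranged from -0.04 to 0.18, Jun from -0.04 to 0.34 and Hmox1 from -0.11 to 0.30. The cause was not tested. Genes near the filter have the least certain sizes.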
